A study of Mus musculus with 14 samples.

Results

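Macrophages carry a set of surface receptors that bind modified lipoproteins, bacterial cell walls, sugars, haemoglobin complexes and spent matrix and take them into the cell. Among them are scavenger receptors, which recognise charged ligands, and mannose receptors, which bind sugars through lectin domains. In the lung, alveolar macrophages use Marco, Msr1 and Mrc1 to clear inhaled particles and surfactant, whereas Cd163, Stab1, Lyve1 and Folr2 are better known from macrophages of the lung interstitium, vessels and other tissues. The genes followed here were Marco, Msr1, Colec12, Scarb1, Mrc1, Stab1, Cd163, Lyve1, Folr2 and Cd5l. They were chosen by symbol, and all 10 of 10 had a row in the table of 43432 genes.

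The libraries were RNA-seq libraries of lung cells sorted as SiglecF+ and CD11c+, the surface pair that marks alveolar macrophages in mouse lung, and then split by high or low surface MHCII. The mice were male 129S1 animals of 10 to 12 weeks, given bleomycin, a DNA-damaging drug that causes lung injury and fibrosis, at a dose labelled 3 U/k, or water, into the trachea. MHCII-high cells were taken 2 weeks (n = 3) and 4 weeks (n = 3) after bleomycin, those with low MHCII likewise at 2 weeks (n = 3) and 4 weeks (n = 3), and the control group held MHCII-low cells of water-treated mice (n = 2). No library of MHCII-high cells from water-treated mice was analysed here, so the effect of bleomycin could be examined in MHCII-low cells only. All cells came from enzyme-digested lungs, and nothing in the labels says that replicates are separate mice, so the p-values measure the spread between these samples, which may be partly technical.

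The values are normalized counts, reads per gene scaled by the authors between libraries, with 15106415 to 88059630 assigned reads behind each library. Mitochondrial ribosomal RNA took 3.12% to 29.0% of the reads. At 2 weeks it took 22.5% to 26.2% in MHCII-high and 3.42% to 18.3% in MHCII-low libraries, and it took 21.7% and 24.1% in controls. At 4 weeks the gates overlapped, at 8.12% to 29.0% in MHCII-high and 3.12% to 23.1% in MHCII-low libraries. In the comparisons of 2-week MHCII-low libraries with MHCII-high ones or with controls, the groups thus differed in this share too. The sorting markers Siglecf (3056.4 to 9550.6 normalized counts) and Itgax, which encodes CD11c (25185 to 44133), were present in every library. Of 11 alveolar macrophage genes, 7 were lower and 0 higher in MHCII-high than in MHCII-low cells over both times, while 7 of 10 genes of interstitial or monocyte-derived macrophages were higher. Over all genes 7.21% were called in that comparison. The MHCII-high library of replicate 3 at 4 weeks stood apart on the second principal component of all genes (-146.4, against -44.7 to 73.5 in the other 13). Calls of the 10 genes at 4 weeks and between the times that use it are also given without it. For the mean of both times, 4 of the 10 were called without it, as with it. Calls of other genes are given with it only.

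**Figure D1:**
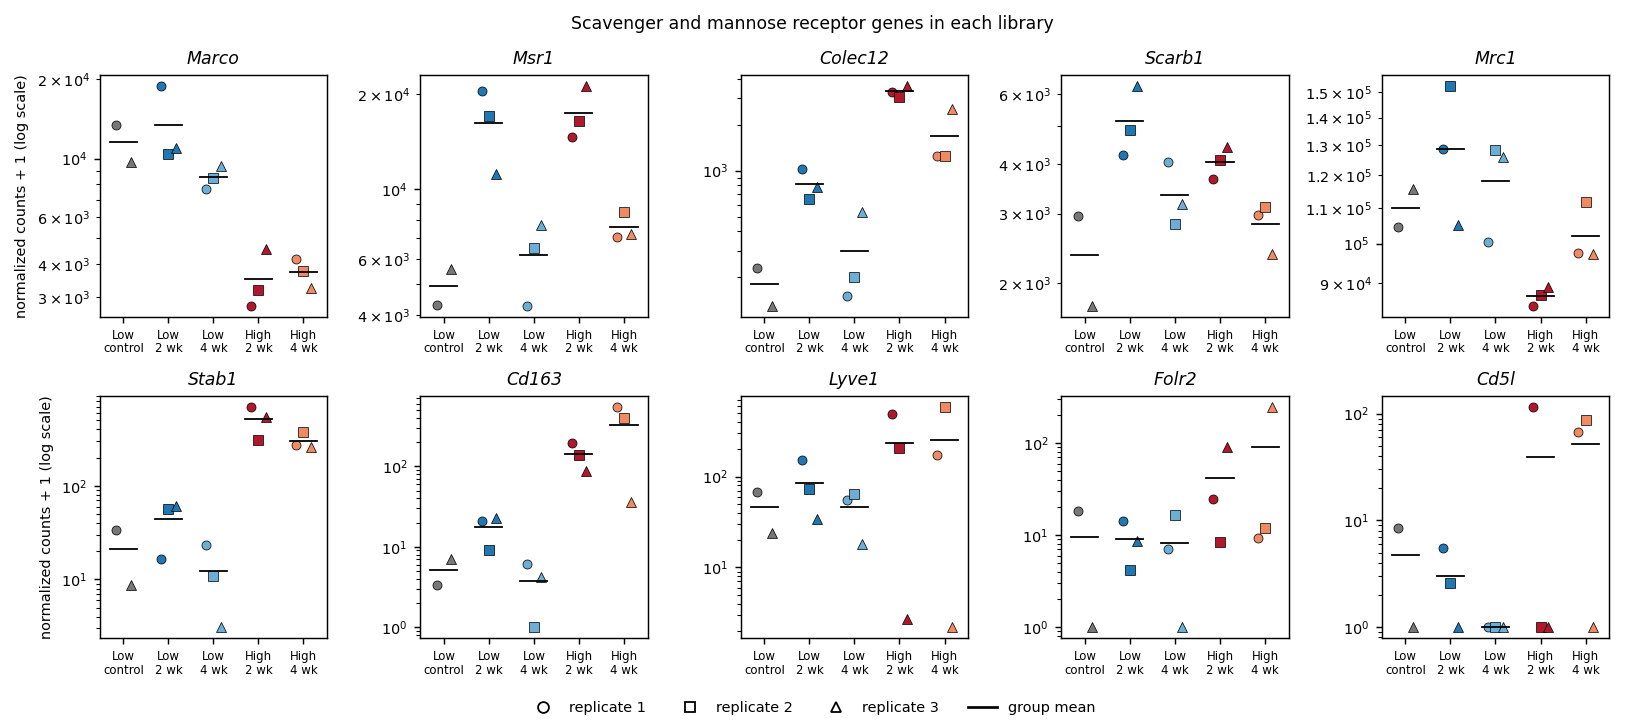
Normalized counts + 1 (log scale) of the 10 genes in each of the 14 libraries, in 5 groups of MHCII-low (Low) and MHCII-high (High) cells; each point is a library, its shape the replicate number, and the line the group mean. Marco lies lower, and Colec12, Stab1 and Cd163 higher, in all 6 MHCII-high than in all 8 MHCII-low libraries, while Lyve1, Folr2 and Cd5l differ most between replicates of a group.

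Per kilobase of exon, the level of Mrc1 was the highest of the 10, with a mean of 17140 normalized counts per kb over the 14 libraries. Marco (4102) and Msr1 (2720) followed, then Scarb1 (577) and Colec12 (401). The other five were far lower, with Lyve1 at 53.4, Folr2 at 29.9, Cd163 at 23.4, Stab1 at 18.5 and Cd5l at 9.88 normalized counts per kb. The 3 genes known from alveolar macrophages thus ranked above those known from other tissue macrophages. All 10 passed the filter on low values (10 normalized counts in at least 2 libraries), but the level reached 10 in only 8 libraries for Cd163, 7 for Folr2 and 3 for Cd5l, and Cd5l passed only through MHCII-high libraries.

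Of the 10 genes, 4 did not overlap between the 6 MHCII-high and the 8 MHCII-low libraries: Marco was lower, and Colec12, Stab1 and Cd163 higher, in MHCII-high cells. Over all 17390 genes that passed the filter, 2.31% did not overlap in one direction or the other. In limma's moderated test, with p-values adjusted over all genes tested and a gene called when the adjusted p fell under 0.05, 3 of 10 were called between MHCII-high and MHCII-low cells at 2 weeks (2 higher and 1 lower; 2.87% of all genes were called) and 4 of 10 at 4 weeks (3 higher and 1 lower; 2.5% of all genes). For the mean of both times the same split of 3 higher and 1 lower stood beside 7.21% of all genes. The median log2 fold change of the 10 was 0.57 at 2 weeks and 1.61 at 4 weeks, against 0.08 and -0.03 over all genes tested. Those medians lie midway between Msr1 (0.13) and Cd5l (1.01) at 2 weeks and between Lyve1 (0.60) and Folr2 (2.63) at 4 weeks. Cd5l, Lyve1 and Folr2 were low or spread widely between replicates, were not called, and Cd5l passed the filter only through MHCII-high libraries. The medians are therefore not read as a shift of the set. With only the 2 groups compared in the fit, Cd163 (adjusted p = 0.147), Stab1 (0.0939) and Colec12 (0.132) were no longer called at 4 weeks. These are bulk libraries, so fewer cells of a type and less RNA per cell cannot be told apart.

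The upstream sequences of 3 of these genes are shown because Marco and the pair Stab1 and Cd163 moved in opposite directions between the sorted populations. RefSeq windows were found for 6 of the 10 genes, and the 250 bases before the transcription start are printed 5′ to 3′ on the gene's strand (build GRCm38.p6). Capitals mark the core of the PU.1 site, GAGGAA, searched on both strands; PU.1 is the transcription factor that directs myeloid identity.
Marco, chr1:120505025-120505274, reverse strand: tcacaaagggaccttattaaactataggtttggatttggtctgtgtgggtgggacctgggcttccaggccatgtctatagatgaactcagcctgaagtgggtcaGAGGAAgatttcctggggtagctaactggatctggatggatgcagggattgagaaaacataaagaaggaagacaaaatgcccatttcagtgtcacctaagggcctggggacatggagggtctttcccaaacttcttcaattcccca
Stab1, chr14:31168642-31168891, reverse strand: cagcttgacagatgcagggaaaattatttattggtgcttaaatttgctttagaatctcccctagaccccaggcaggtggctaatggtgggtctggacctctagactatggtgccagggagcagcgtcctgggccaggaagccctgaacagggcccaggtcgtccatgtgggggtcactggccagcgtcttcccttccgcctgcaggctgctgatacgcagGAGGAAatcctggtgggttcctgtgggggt
Cd163, chr6:124304401-124304650, forward strand: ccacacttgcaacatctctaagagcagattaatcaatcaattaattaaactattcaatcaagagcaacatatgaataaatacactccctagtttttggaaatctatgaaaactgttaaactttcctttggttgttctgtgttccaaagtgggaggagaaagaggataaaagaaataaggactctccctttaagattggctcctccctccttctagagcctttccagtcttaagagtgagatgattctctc
The match lies 146 bases before the start of Marco and 30 bases before that of Stab1, and the Cd163 window holds none. The same letters occur in 23.3% of all 32851 windows of this length. None of the 3 windows holds AP-1 (TGANTCA; 6.75% of all windows), the antioxidant response element (TGACNNNGC; 10.2%), the E-box CACGTG (6.02%) or the SP1 site GGGCGG (32.7%). Among the others, the Mrc1 window has 3 PU.1 cores and 1 SP1 site, the Cd5l window 1 PU.1 core, and the 2 Folr2 windows 1 antioxidant response element and 1 AP-1 site. The Cd163 window follows the RefSeq start and ends at 124304650, a few bases before the start of the gene in the deposited table. A match describes letters and is not a measured binding site.

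Marco (ENSMUSG00000026390, chromosome 1, 120474538 to 120505024, reverse strand, mm10) encodes a collagenous class A scavenger receptor that binds unopsonised particles and bacteria. In MHCII-high cells it measured 2781.5, 3198.1 and 4567.3 normalized counts at 2 weeks and 4172.9, 3778 and 3242.4 at 4 weeks. In MHCII-low cells it measured 18859.2, 10438 and 11012.8 at 2 weeks, 7685.5, 8423.7 and 9367.3 at 4 weeks, and 13346.7 and 9686 in controls. The lowest MHCII-low library, 7685.5, thus stood above the highest MHCII-high library, 4567.3. At 2 weeks Marco was 3.76-fold lower in MHCII-high cells (log2 fold change -1.91 ± 0.22 (SE), adjusted p = 1.41e-05), and at 4 weeks 2.28-fold lower (-1.19 ± 0.22, adjusted p = 0.00245). That the difference changed between the 2 times was not shown by the test of the interaction (0.72 ± 0.31, adjusted p = 0.784); no gene was called in that test (0% of all genes; 987 genes at an unadjusted p under 0.05; 0 genes by edgeR and 60 by DESeq2). Without MHCII-high replicate 3 the difference at 4 weeks was -1.09 (adjusted p = 0.0155). In MHCII-low cells Marco did not differ detectably from controls at 2 weeks (0.19 ± 0.24, adjusted p = 0.828) or at 4 weeks (-0.43 ± 0.24, adjusted p = 0.868), and neither interval (-0.32 to 0.69, and -0.93 to 0.08) reached a change of 2-fold. All MHCII-low libraries of 4 weeks (9367.3 or less) lay below both controls (9686 or more) and below those of 2 weeks (10438 or more). The change from 2 to 4 weeks was not called (-0.61 ± 0.22, adjusted p = 0.338).

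Msr1 (ENSMUSG00000025044, chromosome 8, 39581685 to 39642673, reverse strand) encodes scavenger receptor A, the classical receptor for acetylated lipoprotein and a relative of Marco. Its level changed with time, and no difference between the MHCII gates was called. It measured 14650.6, 16464.7 and 21266.4 normalized counts in MHCII-high and 20459, 17016.1 and 11184.6 in MHCII-low cells at 2 weeks. By 4 weeks the values were 7047.1, 8481.8 and 7234.6 in MHCII-high and 4271.5, 6527.6 and 7721.1 in MHCII-low cells, beside 4307.9 and 5603.6 in controls. All 6 libraries of 2 weeks lay above all 8 others, and at each time the high and low populations overlapped. Msr1 rose 3.20-fold in MHCII-low cells at 2 weeks over control (log2 fold change 1.68 ± 0.25, adjusted p = 0.000355). It fell from 2 to 4 weeks by 1.39 ± 0.22 on the log2 scale in MHCII-low cells (adjusted p = 0.00145) and by 1.19 ± 0.22 in MHCII-high cells (adjusted p = 0.0105). At 4 weeks the MHCII-low value did not differ detectably from control (0.29 ± 0.25, interval -0.23 to 0.81, adjusted p = 0.935). The fall in MHCII-high cells was no longer called without 2-week replicate 3 (-1.04, adjusted p = 0.0744) or without the filter on low values (adjusted p = 0.0506), and was -1.16 (adjusted p = 0.0234) without 4-week replicate 3. Between MHCII-high and MHCII-low cells the log2 difference was 0.13 ± 0.22 at 2 weeks and 0.34 ± 0.22 at 4 weeks, with intervals of -0.33 to 0.60 and -0.13 to 0.80 and no call.

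Colec12 (ENSMUSG00000036103, chromosome 18, 9707648 to 9877995, forward strand, a span shared with 7 other annotated genes) encodes collectin-12, a scavenger receptor with a collagen stalk and a lectin head. It varied both with the gate and with time. In MHCII-high cells it measured 3288.3, 3040 and 3603.8 normalized counts at 2 weeks and 1238.3, 1247.3 and 2549.9 at 4 weeks. The MHCII-low libraries held 1018, 652.9 and 779.1 at 2 weeks, 149.2, 201 and 538.4 at 4 weeks, and 229.4 and 129.1 in controls. The groups therefore stepped down from MHCII-high 2 weeks through MHCII-high 4 weeks and MHCII-low 2 weeks to MHCII-low 4 weeks with no overlap between neighbours, and only the last of these overlapped with control. Colec12 was 4.11-fold higher in MHCII-high cells at 2 weeks (log2 fold change 2.04 ± 0.37, adjusted p = 0.00320) and 6.22-fold higher at 4 weeks (2.64 ± 0.37, adjusted p = 0.000190). MHCII-high replicate 3 at 4 weeks had the highest Colec12 value of its group, and without it the difference at 4 weeks was 2.29 (adjusted p = 0.00182).

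In MHCII-low cells Colec12 rose 4.64-fold at 2 weeks over control (log2 fold change 2.22 ± 0.42, adjusted p = 0.00449). That call was lost without control replicate 3 (1.80, adjusted p = 0.167). From 2 to 4 weeks it fell by 1.66 ± 0.37 on the log2 scale in MHCII-low cells (adjusted p = 0.0325), and this call was lost on leaving out any of 5 of the 6 libraries (replicates 1, 2 and 3 of 2 weeks, replicates 1 and 2 of 4 weeks), with adjusted p from 0.0609 to 0.230. It was also lost with edgeR (-1.47, adjusted p = 0.102), with library totals (-1.51, adjusted p = 0.104) and with no filter (adjusted p = 0.146). In MHCII-high cells the change of -1.06 ± 0.37 was not called (adjusted p = 0.180), nor was it without 4-week replicate 3 (-1.41, adjusted p = 0.0707).

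Scarb1 (ENSMUSG00000037936, chromosome 5, 125277087 to 125341094, reverse strand) encodes the class B receptor SR-BI, which takes up cholesterol esters from high-density lipoprotein. It measured 4224.3, 4882.2 and 6312.8 normalized counts in MHCII-low cells at 2 weeks, against 2965.5 and 1751.9 in controls. The MHCII-low libraries of 4 weeks held 4044.3, 2823.6 and 3162.2, and those of MHCII-high cells 3659.3, 4084.4 and 4427.4 at 2 weeks and 2974.1, 3115.9 and 2364.9 at 4 weeks. All 3 MHCII-low libraries of 2 weeks lay above both controls, whereas neighbours in the order of the group means overlapped throughout. Scarb1 rose 2.22-fold in MHCII-low cells at 2 weeks over control (log2 fold change 1.15 ± 0.23, adjusted p = 0.00745), a call that was lost without control replicate 3 (0.77, adjusted p = 0.372). The MHCII-low value at 4 weeks (0.54 ± 0.23 over control, adjusted p = 0.760) and the differences between MHCII-high and MHCII-low cells (-0.33 ± 0.21 at 2 weeks, -0.24 ± 0.21 at 4 weeks) were not called.

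Mrc1 (ENSMUSG00000026712, chromosome 2, 14229392 to 14332057, forward strand, with the microRNA gene Mir511 inside its span) encodes the mannose receptor CD206, a marker that alveolar macrophages carry constitutively. It measured 84662.3, 87126.6 and 89068.9 normalized counts in MHCII-high cells at 2 weeks and 128842, 152537 and 104987 in MHCII-low cells. At 4 weeks it measured 97655.6, 111662 and 97292 in MHCII-high and 100424, 128314 and 126123 in MHCII-low cells, and 104466 and 115602 in controls. At 2 weeks the MHCII-high libraries lay below all MHCII-low libraries, and at 4 weeks they overlapped. The difference was not called at 2 weeks (log2 -0.55 ± 0.17, adjusted p = 0.0938), at 4 weeks (-0.21 ± 0.17, adjusted p = 0.628) or for the mean of both (-0.38 ± 0.12, adjusted p = 0.0635). The result sat close to the threshold: with edgeR on recovered whole reads it was called at 2 weeks (-0.63, adjusted p = 0.0370) and for the mean (-0.45, adjusted p = 0.0148), and with the replicate number as a block the mean was called (-0.38, adjusted p = 0.0432), but not with a block within each time (adjusted p = 0.0596). In all, 4 of 13 alternatives called it at 2 weeks and 7 of 13 for the mean, among them DESeq2 (adjusted p = 0.00790 and 0.00642), library totals (0.0375 and 0.0107) and removal of the GC trend (0.00752 and 0.00380). Against control, Mrc1 in MHCII-low cells was 0.21 ± 0.19 at 2 weeks and 0.10 ± 0.19 at 4 weeks, with intervals of -0.19 to 0.61 and -0.30 to 0.50.

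**Figure D2:**
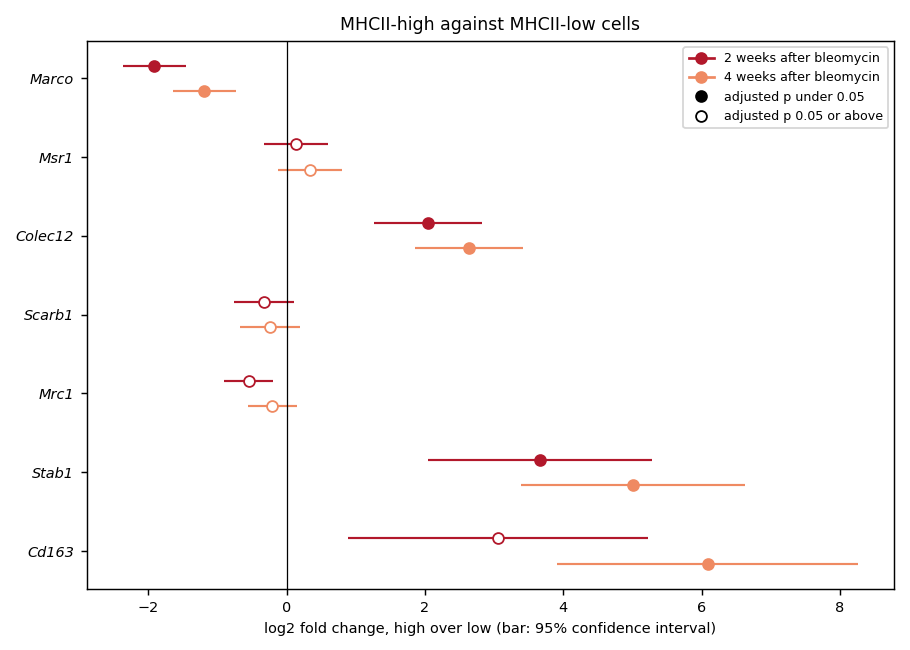
Log2 fold change of MHCII-high over MHCII-low cells at 2 and 4 weeks for 7 of the genes, with 95% confidence intervals from the fit; filled points have an adjusted p under 0.05. Marco (-1.91 and -1.19) lies left of 0 and Colec12 (2.04 and 2.64) and Stab1 (3.67 and 5.01) right of it at both times, while Cd163 is filled at 4 weeks only; Lyve1, Folr2 and Cd5l are left out for their wide standard errors (1.44 to 1.77, against at most 1.04 for the 7 plotted).

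Stab1 (ENSMUSG00000042286, chromosome 14, 31139013 to 31168641, reverse strand) encodes stabilin-1, a receptor of tissue macrophages and sinusoidal endothelium that clears modified lipoprotein and the matrix protein SPARC. Its span meets Nt5dc2 on the other strand, and whether the counting used strand is not given in the sources used here. Stab1 measured 697.7, 308 and 543.9 normalized counts in MHCII-high cells at 2 weeks and 268.5, 378.1 and 255.6 at 4 weeks. MHCII-low cells held 15.7, 55.7 and 59.5 at 2 weeks, 22.3, 9.8 and 2.1 at 4 weeks, and 33.1 and 7.7 in controls. The lowest MHCII-high library (255.6) was thus above the highest MHCII-low library (59.5). The difference was 12.7-fold at 2 weeks (log2 fold change 3.67 ± 0.78, adjusted p = 0.0102) and 32.3-fold at 4 weeks (5.01 ± 0.78, adjusted p = 0.000553). The call at 2 weeks was lost with the share of mitochondrial ribosomal RNA as a covariate (3.23, adjusted p = 0.115), without MHCII-high replicate 1 (3.41, adjusted p = 0.0751) and without MHCII-low replicate 1 (3.06, adjusted p = 0.0766). At 4 weeks it was 5.12 (adjusted p = 0.00207) without MHCII-high replicate 3, and ranged from 4.23 (without MHCII-low replicate 3) to 5.68 (without MHCII-low replicate 1) over the 6 left-out libraries, called each time. With 5 added before the logarithm in place of 1 it was 4.41.

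Cd163 (ENSMUSG00000008845, chromosome 6, 124304656 to 124330527, forward strand) encodes the receptor for haptoglobin-haemoglobin complexes, a marker of tissue macrophages that alveolar macrophages largely lack. It measured 194, 139.3 and 87.7 normalized counts in MHCII-high cells at 2 weeks and 551.5, 398.5 and 35.3 at 4 weeks, where replicate 3 stood far below the other two. In MHCII-low cells it measured 20.1, 8 and 21.5 at 2 weeks, 5.1, 0 and 3.2 at 4 weeks, and 2.3 and 6 in controls, from 0 to 39 reads per library; 3 reads correspond to 1.17 to 6.71 normalized counts. Every MHCII-high library (35.3 or more) exceeded every MHCII-low library (21.5 or less). The difference was called at 4 weeks (log2 fold change 6.08 ± 1.04, adjusted p = 0.00143; 7.32 and adjusted p = 0.000130 without MHCII-high replicate 3) and not at 2 weeks (3.05 ± 1.04, adjusted p = 0.132; DESeq2 on recovered reads called it, 3.06, adjusted p = 0.00534). The size of the change at 4 weeks depends on the value added before the logarithm, at 6.51 with 0.5 and 4.81 with 5 in place of 1, and it was 5.30 without MHCII-low replicate 2. That the 2 times differ was not shown by the interaction (3.03 ± 1.47, adjusted p = 0.876; 4.27 and not called without MHCII-high replicate 3).

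Markers of several, but not all, other cell types were higher in MHCII-high cells, as Stab1, Cd163 and Colec12 were. The summed level of 10 genes of interstitial or monocyte-derived macrophages was 36465.6 to 76210.7 normalized counts in MHCII-high cells against 17890.4 to 35859.2 in MHCII-low cells after bleomycin. Csf1r made up most of the MHCII-low sums, at 14229.6 to 24958.5 against 18286.1 to 29969 in MHCII-high cells. The median log2 difference of these 10 genes over both times was 2.70. The summed level of 8 further genes of tissue-resident macrophages was 2139.7 to 4051.9 normalized counts in MHCII-high cells. It was 485.5 to 3721.7 in MHCII-low cells after bleomycin, so the gates overlapped. Cbr2 made up most of the MHCII-low sums at 4 weeks and ran the other way there. It measured 3497.1, 1513.8 and 1882.8 in MHCII-low cells at 4 weeks, against 842.9, 243.2 and 1038.2 in MHCII-high cells. The B cell genes Cd79a, Cd79b and Ms4a1 summed to 192.5 to 754.7 against 2.0 to 60.0, with Cd79b at 0 in 5 libraries and Ms4a1 in 2. The 6 dendritic cell genes summed to 628.2 to 1424.5 against 76.7 to 169.6, with Flt3 at 0 in 5 libraries. Counts of calls are not given for these 2 lists or for the 8 tissue-resident genes. Cd79b, Flt3, Cd209a and, among the tissue-resident genes, Ccl8 would not have passed the filter on MHCII-low libraries alone. Of 6 alveolar epithelium genes, 3 were higher (3409.3 to 9902.6 against 1536.7 to 3761.2), beside 7.21% of all genes called over both times. No gene of the fibroblast, T cell, neutrophil, eosinophil, blood endothelium or lymphatic endothelium lists was called over both times, with median log2 differences of -0.49, -0.29, 0.78, 0.26, 0.63 and -0.13. The control sums were 941.9 to 1882.9 for tissue-resident macrophages, 23.4 to 25.8 for B cells, 244.2 to 249.7 for dendritic cells and 1221.9 to 1258.7 for epithelium. The part of these cells in the levels of Stab1, Cd163 and Colec12 was not tested.

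Lyve1, Folr2 and Cd5l, used as markers of perivascular and other resident macrophages, spread widely between replicates of a group. Lyve1 (ENSMUSG00000030787, chromosome 7, 110850607 to 110863239, reverse strand) encodes a hyaluronan receptor also found on lymphatic endothelium. It measured 495, 205.6 and 1.7 normalized counts in MHCII-high cells at 2 weeks and 172.7, 589.9 and 1.2 at 4 weeks. MHCII-low cells held 149.9, 71.7 and 33.6 at 2 weeks, 54.9, 63.7 and 17.1 at 4 weeks, and 67 and 23.2 in controls. Replicate 3 was the lowest library of each of the 5 groups, with 2 reads and 1 read in the MHCII-high ones. The summed level of 10 blood endothelium genes was also lowest in replicate 3 of each group: in MHCII-high cells it was 2419.9, 744.6 and 496.9 at 2 weeks and 1359.2, 1933.0 and 288.4 at 4 weeks. In MHCII-low cells that sum was 1150.0, 407.6 and 230.4 at 2 weeks, 651.7, 508.8 and 286.8 at 4 weeks, and 874.5 and 493.3 in controls. None of the 10 endothelial genes was called between MHCII-high and MHCII-low cells. The sum of 5 lymphatic genes did not follow replicate 3 in MHCII-low cells: it was 422.9, 670.4 and 488.9 at 2 weeks, 483.7, 389.2 and 508.6 at 4 weeks, and 453.0 and 499.3 in controls. In MHCII-high cells it was 872.2, 788.1 and 406.6 at 2 weeks and 570.2, 491.1 and 129.0 at 4 weeks, lowest in replicate 3. Prox1 made up most of it (105.9 to 601.0), Flt4, Mmrn1 and Reln reached 143.6, 207.3 and 112.4 at most, and Ccl21a was at 0 in all 14 libraries. The part of blood or lymphatic endothelial RNA in the Lyve1 level was not tested.

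**Figure D3:**
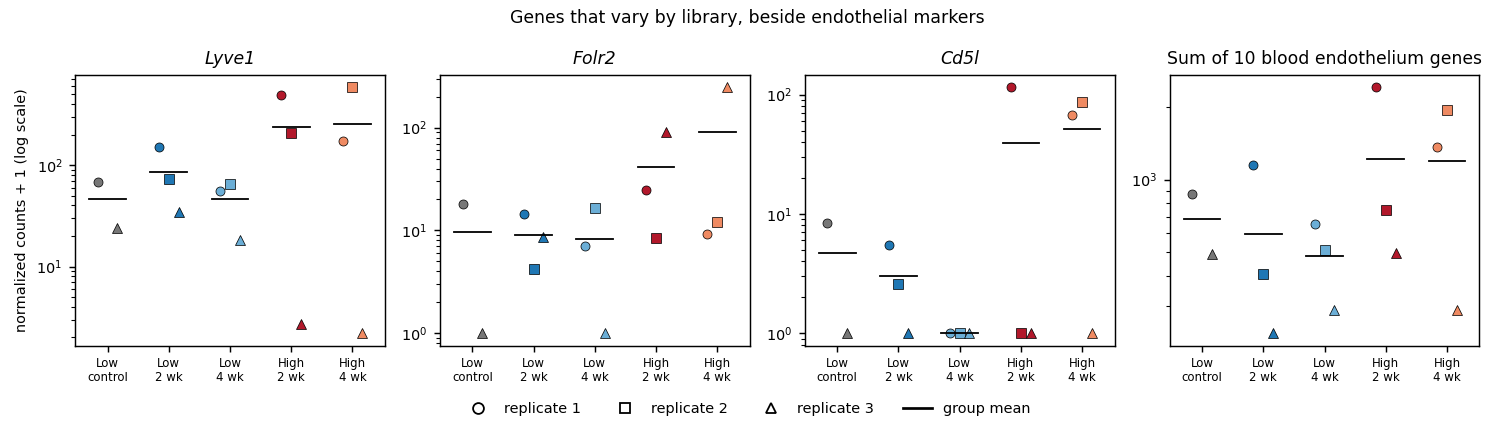
Normalized counts + 1 (log scale) of Lyve1, Folr2 and Cd5l and of the sum of 10 blood endothelium genes, by group, with the replicate number as the point's shape and the line as the group mean. Triangles (replicate 3) are the lowest Lyve1 and endothelial points in each group, whereas Folr2 is highest in replicate 3 of both MHCII-high groups.

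Folr2 (ENSMUSG00000032725, chromosome 7, 101839988 to 101857194, reverse strand) encodes folate receptor beta. It measured 23.7, 7.4 and 90.4 normalized counts in MHCII-high cells at 2 weeks and 8.3, 11 and 248.3 at 4 weeks, so that replicate 3 was the highest at both times. The MHCII-low libraries held 13.4, 3.2 and 7.7 at 2 weeks, 6, 15.7 and 0 at 4 weeks, and 17.1 and 0 in controls. In MHCII-high cells replicate 3 thus had the highest Folr2 and the lowest Lyve1 level of its group at both times, while replicates 1 and 2 ranked alike for both genes, the 2 highest Folr2 libraries being the 2 lowest for Lyve1. Cd5l (ENSMUSG00000015854, chromosome 3, 87357881 to 87371073, forward strand) encodes a secreted scavenger receptor cysteine-rich protein, also called AIM, that binds to apoptotic cells and lipids. It had reads in 6 of 14 libraries, at 115.3 normalized counts in MHCII-high replicate 1 of 2 weeks and 66.6 and 86.3 in MHCII-high replicates 1 and 2 of 4 weeks. Replicates 1 and 2 of MHCII-low cells at 2 weeks held 4.5 and 1.6 and control replicate 1 held 7.4, and the other 8 libraries held none. At 3 reads a library, a count of 0 allows 2.57 to 3.20 normalized counts in the MHCII-low libraries of 4 weeks. In limma, none of Lyve1, Folr2 and Cd5l was called in any of 8 comparisons: the lowest adjusted p was 0.220 for Folr2 and 0.238 for Cd5l, both in the mean of both times, and 0.912 for Lyve1. On recovered reads DESeq2 called Cd5l in 4 comparisons and Folr2 in the mean of both times (adjusted p = 0.0351), and edgeR called Cd5l in that mean (adjusted p = 0.0421). All 4 DESeq2 calls of Cd5l involve the MHCII-low libraries of 4 weeks, which held no reads of it. Their log2 fold changes, from -18.8 to 22.6, are therefore not sizes of a change.

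In MHCII-low cells after bleomycin, 3 of the 10 genes were higher than control at 2 weeks and none lower, namely Msr1, Scarb1 and Colec12, beside 1.91% of all genes called. Fitted on these 2 groups alone, none of the 3 was called (adjusted p = 0.0969, 0.158 and 0.0770), and the later fall of Msr1 in MHCII-low cells was not called either when only its 2 groups were fitted (0.199). Of the 10 genes of interstitial or monocyte-derived macrophages 7 were also higher at 2 weeks, with sums of 30180.2 to 35859.2 normalized counts against 16458.8 to 19003.6 in controls. Csf1r made up most of these sums, and the part of such cells in the rises of the 3 genes was not tested. At 4 weeks 0 of 10 were called, beside 0.046% of all genes. In limma 1065 genes had an unadjusted p under 0.05 at 4 weeks, and edgeR also called none of the 10 while DESeq2 called Cd5l (adjusted p = 0.0125), whose MHCII-low libraries of 4 weeks hold no reads. The median log2 change of the 10 was 1.04 at 2 weeks and 0.04 at 4 weeks, against -0.09 and -0.06 over all genes tested. Both comparisons share the 2 control libraries. The 2-week median lies midway between Folr2 (0.92) and Scarb1 (1.15). Folr2 had few reads, and its mean in MHCII-low cells at 2 weeks was below that of controls (8.1 against 8.55 normalized counts). That median is therefore not read as a shift of the set. The time contrast, which does not use the controls, called 2 of 10 lower at 4 than at 2 weeks in MHCII-low cells (Msr1 and Colec12; 0.857% of all genes) and 1 of 10 lower in MHCII-high cells (Msr1; 1.07% of all genes). Marco and Mrc1, the most abundant per kilobase beside Msr1, were called in neither time contrast (Marco -0.61 ± 0.22 in MHCII-low and 0.11 ± 0.22 in MHCII-high cells, Mrc1 -0.11 ± 0.17 and 0.23 ± 0.17). Stab1 and Cd163 were not called either, at -2.07 ± 0.78 and -2.46 ± 1.04 in MHCII-low cells and -0.72 ± 0.78 and 0.57 ± 1.04 in MHCII-high cells (-0.62 and 1.81 without 4-week replicate 3).

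**Figure D4:**
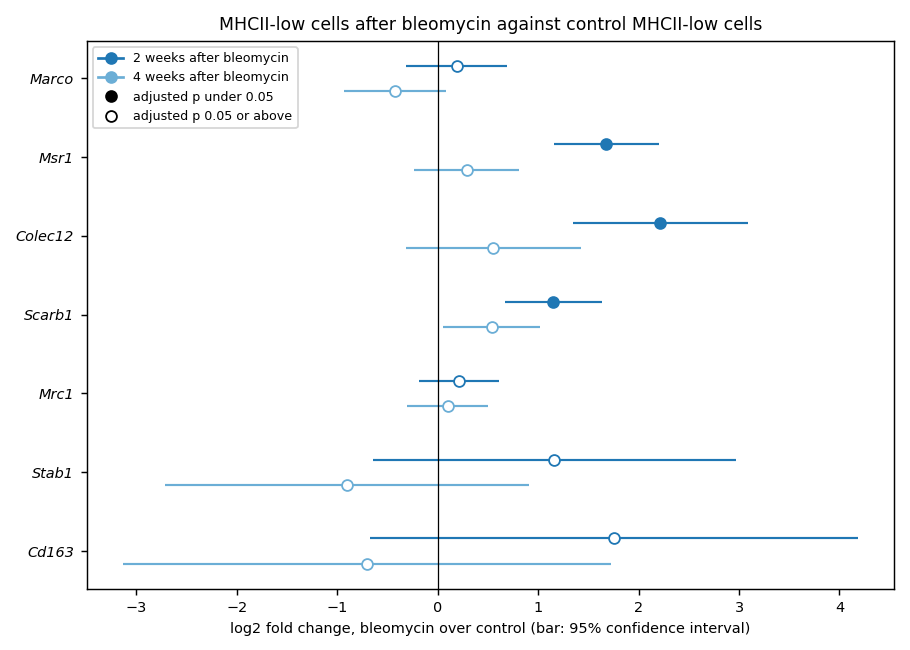
Log2 fold change of MHCII-low cells 2 and 4 weeks after bleomycin over control MHCII-low cells for 7 of the genes, with 95% confidence intervals from the fit; filled points have an adjusted p under 0.05. Msr1 (1.68), Colec12 (2.22) and Scarb1 (1.15) are filled at 2 weeks and no gene is filled at 4 weeks.

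Other scavenger and mannose-type receptors were taken from a list of 27 genes, of which 22 passed the filter. Of these, 4 would not have passed on MHCII-low libraries alone (Cd163l1, Cd209a, Dmbt1 and Scara5). Cd163l1, Dmbt1 and Scara5 had their highest value in an MHCII-low library (89.5, 29.2 and 19.6 normalized counts). Only Cd209a passed through MHCII-high libraries alone. Cd14 is also in the list of monocyte-derived macrophages, Cd209a in that of dendritic cells and Stab2 in that of blood endothelium. Between MHCII-high and MHCII-low cells 1 was higher at 2 weeks and 2 at 4 weeks, beside 2.87% and 2.5% of all genes called. For the mean of both times 2 were higher and 1 lower, beside 7.21% of all genes. Cxcl16, a transmembrane chemokine that also binds oxidised lipoprotein, was higher at 2 weeks (log2 fold change 2.21 ± 0.28, adjusted p = 4.71e-05) and at 4 weeks (2.61 ± 0.28, adjusted p = 3.74e-06). Its values were 2542.1 to 3263.6 normalized counts in MHCII-high and 458.6 to 832.0 in MHCII-low cells at 2 weeks, so the groups did not overlap. The lectin gene Cd209a measured 95.7, 139.6 and 8.5 normalized counts in MHCII-high cells at 4 weeks and was at 0 in 9 libraries, all 6 MHCII-low libraries after bleomycin among them. It passed the filter only through MHCII-high replicates 1 and 2 of 4 weeks, so its calls within these counts are not read as results. Ly75, which encodes the mannose receptor family member DEC-205, was lower over both times (-0.59 ± 0.14, adjusted p = 0.0125). The median log2 fold change of the 22 was -0.03 at 2 weeks and 0.02 at 4 weeks (-0.14 and 0.01 with genes absent from a whole group set at their limit of 3 reads a library, or left out where both groups were at or under it).

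Against control, 4 of the 22 were higher and 1 lower in MHCII-low cells at 2 weeks and none was called at 4 weeks. Over all genes 1.91% and 0.046% were called. Those higher were Cxcl16 (log2 2.12 ± 0.31), Ly75 (1.54 ± 0.23), the lipopolysaccharide co-receptor Cd14 (0.92 ± 0.18) and the lysosomal glycoprotein gene Cd68 (0.88 ± 0.19). Cd36, the class B receptor for oxidised lipoprotein and fatty acids, was lower (-1.33 ± 0.26, adjusted p = 0.00619), opposite in direction to its class B relative Scarb1. From 2 to 4 weeks 3 of the 22 fell in MHCII-low cells and 3 in MHCII-high cells: Cxcl16 (by 1.56 and 1.16 on the log2 scale), Ly75 (by 1.09 and 0.89) and Clec4e, the receptor Mincle (by 1.23 and 1.29). The shares of all genes called between these times were 0.857% in MHCII-low and 1.07% in MHCII-high cells. In MHCII-high cells 1 of the 22 was higher at 4 weeks, Cd209a, whose values at 2 weeks were 1.5, 0 and 0 normalized counts. That call is not read as a result, since Cd209a passed the filter only through its MHCII-high libraries of 4 weeks. The median change of the 22 was 0.16 at 2 weeks and 0.03 at 4 weeks against control (0.22 and 0.23 with genes absent from a whole group at that limit or left out).

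The 10 genes did not vary as a block over the 14 libraries. On the log2(value + 1) scale Cd163, Stab1 and Colec12 went together, with Pearson r of 0.84 between Cd163 and Stab1, 0.80 between Stab1 and Colec12 and 0.77 between Cd163 and Colec12. Marco went with Mrc1 (0.70) and against Stab1 (-0.79) and Cd163 (-0.71). Msr1 went with Colec12 (0.72) and Scarb1 (0.59), and hardly with its class A relative Marco (-0.13). Lyve1 went with Cd5l (0.70) and not with Folr2 (-0.32). Cd5l reached 10 normalized counts in only 3 libraries and Folr2 in 7, so the r values of these genes rest largely on counts near 0. These libraries share the gate and the time point, so the values describe the groups as much as the genes.

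Among 9993 genes with a mean of at least 100 normalized counts, the 3 whose pattern over the 14 libraries was most like that of Marco were Pygl (Pearson r = 0.976), Tagln2 (0.957) and Lars (0.930). For Msr1 they were Oxct1 (0.957), Atp6v1a (0.947) and Spp1 (0.941), and for Colec12 they were Mmp12 (0.986), C1qb (0.983) and Cacna1d (0.974). The nearest to Stab1 were Cx3cr1 (0.974), Rcsd1 (0.953) and Eps8 (0.948), and the nearest to Cd163 were Bank1 (0.964), Slamf7 (0.952) and Runx3 (0.929). Bank1 is known from B cells and Cx3cr1 from monocyte-derived macrophages. Scarb1 was nearest to Mvd (0.944), Mvk (0.925) and Rragc (0.901), of which Mvd and Mvk encode enzymes of the mevalonate pathway that leads to cholesterol. Mrc1 was nearest to Cdc40 (0.892), Lilra5 (0.844) and Psme3 (0.829), and Lyve1 to Atxn7l2 (0.846), Timp3 (0.834) and Plcxd2 (0.834).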

How the data were processed

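RNA of sorted SiglecF+, CD11c+ lung cells of 5 groups (14 libraries) was enriched for mRNA, amplified with Ovation RNAseq V2 and made into Nextera XT libraries, per the labels' protocols. The submitters' processing notes name STAR, DESeq2 and the build mm10, without versions or roles. The authors deposited normalized counts, a signal per gene and library, and a GC percent and exon length per gene, per the file headers. In each library the values are whole multiples of 1 step (0.390 to 2.24 normalized counts), which gave whole reads for 99.957% to 100% of genes within 0.05. For control replicate 1, whose step is the smallest, a separate check of the low values did not mark them as whole reads, so its reads are less certain.

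The main test was limma 3.58.1 with a mean-variance trend (R 4.3.3) on log2(value + 1) of genes with at least 10 normalized counts in 2 libraries (17390 of 43432), all 14 libraries in 1 fit with 1 term per group, and Benjamini-Hochberg adjustment over all genes tested within each of 8 comparisons. Fold changes are on that scale and understate changes of low genes. The fit was tested on simulated data. Spans equal those of GENCODE for 9 of the 10 genes, and for Colec12 that of the deposited table is given. All 10 genes are named in each comparison. Of the list of other receptors those past the threshold are named, and of all genes the 3 most alike in pattern. The alternatives were pseudocounts, filters, scalings, a GC trend, the mitochondrial RNA share, the replicate block, the groups compared alone, edgeR 4.0.16 and DESeq2 1.42.0 on recovered reads, and leaving out each library. Limits at 0 reads take 3 reads and cover counting error only, since reads are not independent molecules. The genes and lists were chosen with earlier results of these data known. A further gene of the B cell list is not reported here. Sequences are from RefSeq (GRCm38.p6).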

Additional observations from a re-analysis of the deposited data

Results flagged for a closer look

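Msr1 and Colec12 changed differently over control at the 2 times in MHCII-low cells, by a test of the difference itself. The change of Msr1 over control at 4 weeks minus that at 2 weeks was -1.39 on the log2 scale (adjusted p = 0.00145), with all 3 libraries of 4 weeks below all 3 of 2 weeks. The same difference for Colec12 was -1.66 (adjusted p = 0.0325), again with no overlap. The controls cancel in these differences, so they equal the contrast of 4 against 2 weeks, and the Colec12 call is lost on leaving out libraries, as given above, and with edgeR (adjusted p = 0.102), library totals (0.104), no filter (0.146) and only the 2 groups in the fit (0.327). The Msr1 call is lost with only the 2 groups in the fit (0.199).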

How the results depend on the processing

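For the 7 genes other than Lyve1, Folr2 and Cd5l, all 17 results past the threshold kept their direction in the 12 or 13 alternative settings and 5 to 12 left-out libraries that each could be given, 12 kept their call without each library, and 7 kept it throughout. Of the 39 results of these genes not called, 10 changed sign and 3 were called in some setting. Of 24 results for Lyve1, Folr2 and Cd5l, 0 were called by limma, 5 were called in some setting and 13 changed sign. Of the 10 genes, DESeq2 called 5 between MHCII-high and MHCII-low cells at 2 weeks (3 in limma), 7 for the mean of both times (4) and 1 in MHCII-low cells at 4 weeks over control (0). Over all genes it called 1055 (499 in limma), 2122 (1254) and 74 (8) in these comparisons. The 7 for the mean and the 1 over control include Cd5l, which passed the filter only through MHCII-high libraries. With only the groups compared in the fit, 1 was called between MHCII-high and MHCII-low cells at 4 weeks (4), 0 in MHCII-low cells at 2 weeks over control (3), 0 in MHCII-low cells at 4 against 2 weeks (2) and 0 in MHCII-high cells at 4 against 2 weeks (1); such a fit has fewer samples to estimate the spread. With no filter, which tests more genes, 1 was called in MHCII-low and 0 in MHCII-high cells at 4 against 2 weeks, and library totals and edgeR each called 1 in MHCII-low cells. Over all genes edgeR called 138 between these times in MHCII-low cells (149 in limma). Leaving out 1 library gave 1 to 3 at 2 weeks over control, 1 to 2 in MHCII-low cells at 4 against 2 weeks and 0 to 1 in MHCII-high cells. Over all genes those fits called 127 to 307, 95 to 138 and 64 to 298 (332, 149 and 186 with all libraries).

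Signs turned as follows, and the cause was not tested. The Msr1 difference between MHCII-high and MHCII-low cells at 2 weeks (0.13) was -0.022 with library totals, -0.20 with the GC trend removed and -0.11 to 0.32 without 1 library, and its mean of both times was -0.046 with the GC trend removed. Mrc1 in MHCII-low cells at 4 against 2 weeks (-0.11) was 0.036 with library totals and -0.25 to 0.016 without 1 library. Without 1 library, Marco at 2 weeks over control ran from -0.085 to 0.42, Cd163 and Stab1 at 4 weeks over control from -1.25 to 0.075 and from -1.89 to 0.081, Marco and Cd163 in MHCII-high cells at 4 against 2 weeks from -0.042 to 0.32 and from -0.16 to 1.81, and the Msr1 and Scarb1 interactions from -0.041 to 0.45 and from -0.073 to 0.23. Library totals moved the median of all genes for the mean of both times from 0.02 to -0.13.

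Over all genes, the calls between MHCII-high and MHCII-low cells ranged over the settings from 207 to 1055 at 2 weeks (499 in limma), 56 to 911 at 4 weeks (434) and 500 to 2122 for the mean (1254), and those in MHCII-low cells over control from 36 to 665 at 2 weeks (332) and 0 to 74 at 4 weeks (8). At 4 against 2 weeks they ranged from 15 to 320 in MHCII-low (149) and 0 to 638 in MHCII-high cells (186), and for the interaction from 0 to 60 (0). Same-numbered MHCII-high and MHCII-low libraries of a time deviated together with r of 0.009 to 0.107, over 0.1 in 1 of 6 pairs. Among the libraries of the other gate at that time, 8 of 12 libraries correlated best with their own number. That is more than an even choice would give, but the correlations are weak and the labels state no pairing. Whether the numbers pair the samples was not settled, and the main test did not use them. With the replicate block, 5 of the 10 genes were called for the mean of both times, the added one being Mrc1 (adjusted p = 0.0596, and 4 genes called, with the block within time), and the counts of the other comparisons were those of the main test. Over all genes the replicate block called 1316 for the mean of both times (1254 in the main test). DESeq2 called Cd5l in 4 comparisons, all with the MHCII-low libraries of 4 weeks that held no reads of it, and Folr2 in 1. With edgeR, Cd5l was called in 1 (adjusted p = 0.0421). Control had 2 libraries, which limits both comparisons with it.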
